A study of Bos taurus with 10 samples.

Results

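The genes described are the ion channel genes of bovine fat, chosen by symbol alone: potassium channel genes (KCN), sodium channel genes (SCN followed by a digit), voltage-gated calcium channel genes (CACN), TRP cation channel genes (TRPC, TRPM, TRPV), intracellular calcium release channels (RYR, ITPR), the mechanosensitive PIEZO pair, and the chloride and other anion genes CLCN, ANO and LRRC8. The rule found 103 of the 12674 genes in the deposited table, 77 of them pore-forming proteins and 25 accessory subunits. The remaining member, TRPC4AP, encodes a protein associated with TRPC channels and is no channel itself. RNA was sequenced from intramuscular fat (marbling, the fat between muscle fibres) and from subcutaneous fat (under the skin) of 5 adult Angus-cross heifers, with 5 libraries per depot. The animals received no treatment named in the labels, both depots came from the same heifers, and the same replicate number was taken as the same animal. Counts over the listed genes totalled 9392739 to 14836808 per intramuscular library and 13776094 to 17685678 per subcutaneous library. Whole tissue was sequenced, so more cells of a type and more RNA per cell cannot be told apart. Adipocyte markers were present in every library, and the 11 of 12 with values summed to 5811.4 to 17803.7 CPM (reads of a gene scaled to the library size) in intramuscular fat and 19686.2 to 27226.6 CPM in subcutaneous fat.

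Ion channels are membrane pores that let selected ions pass down their gradients. Potassium channels set the resting membrane potential, voltage-gated sodium channels carry the upstroke of the action potential, and voltage-gated calcium channels turn a depolarisation into calcium entry. RYR and ITPR channels release calcium from the endoplasmic or sarcoplasmic reticulum. LRRC8 proteins form the volume-regulated anion channel, which in mouse adipocytes is known to sense cell enlargement, and CLCN7 exchanges chloride for protons in the lysosome membrane. In adipose tissue, arterioles, pericytes and nerve fibres carry the channels of excitable cells, while adipocytes are not classically excitable.

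Levels between genes were compared as CPM per kilobase of gene model. By the mean over all 10 libraries, the genes with the highest level per length were TRPC4AP, ANO10, CLCN7, LRRC8A and PIEZO1. ANO10, an anoctamin of intracellular membranes, stood at 53.2 ± 12.6 CPM per kb in intramuscular and 81.1 ± 21 CPM per kb in subcutaneous fat (SD, n = 5). LRRC8A, the obligatory LRRC8 subunit, stood at 26.4 ± 4.1 CPM per kb in intramuscular and 30.6 ± 6.43 in subcutaneous fat. PIEZO1, a stretch-activated cation channel, stood at 27.7 ± 8.84 CPM per kb in intramuscular and 28.3 ± 14.1 in subcutaneous fat. In intramuscular fat the potassium channel subunits KCNAB1 (31.4 ± 9.77 CPM per kb) and KCNMB1 (28.1 ± 6.82) lay at the level of CLCN7 (27.8 ± 1.24), with ranges of mean ± SD that overlapped. In subcutaneous fat KCNMB1 stood at 8.18 ± 2.84 and KCNAB1 at 1.33 ± 1.18 CPM per kb, both below CLCN7 at 45.2 ± 7.53 CPM per kb.

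**Figure D1:**
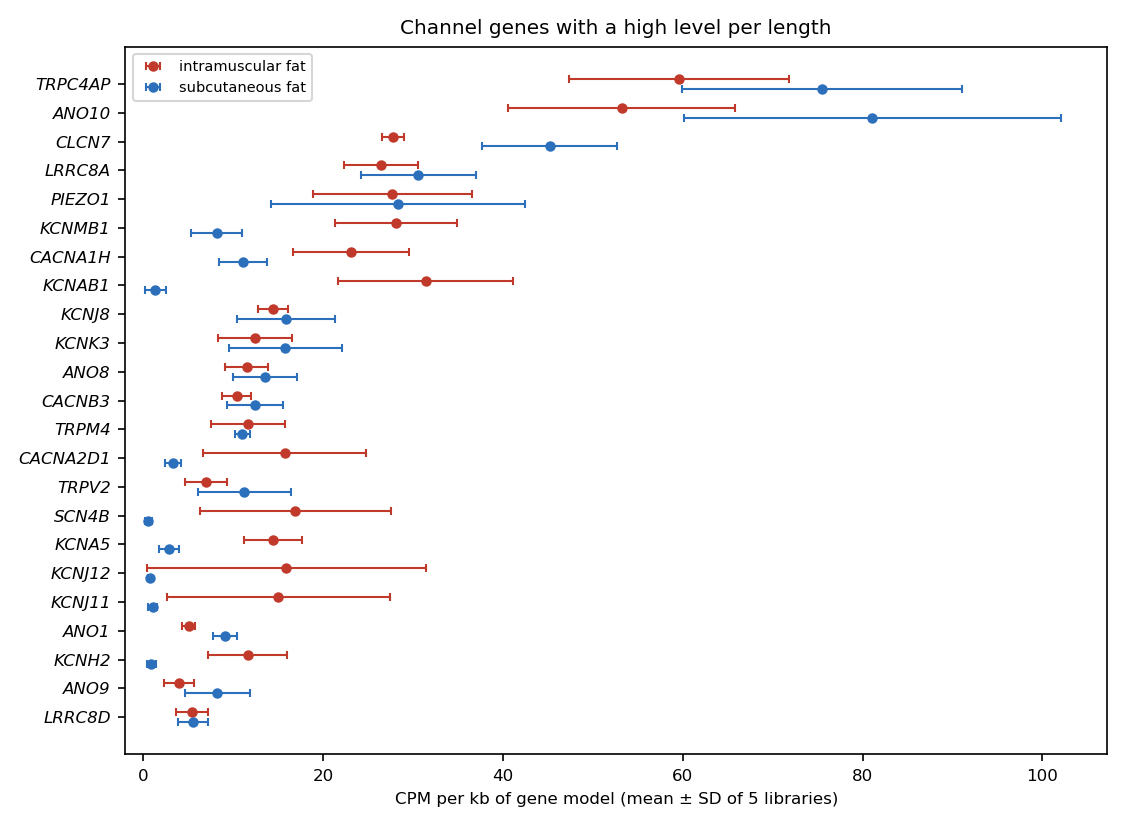
Level per length (CPM per kb of gene model, mean and SD of 5 libraries) of 23 members among those with the highest mean over all libraries, intramuscular fat in red above subcutaneous fat in blue. KCNAB1 stood at 31.4 against 1.33 CPM per kb, while for genes such as LRRC8A and PIEZO1 the bars of the depots overlapped.

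Of the 103 genes, 100 passed the filter on low counts and were tested with edgeR's quasi-likelihood test over all 12521 genes that passed. A gene that passed the filter through one depot only was more likely to differ, so the counts describe the tested genes and not the full list. In intramuscular fat 23 channel genes were higher and 5 lower than in subcutaneous fat at an adjusted p of 0.05, where 6.75% of all genes tested were higher and 5.49% lower. All 23 rises and 3 of the 5 falls were at least 2-fold, against 4.82% and 2.01% of all genes tested. The median log2 fold change was 0.16 over the tested channel genes and -0.04 over all tested genes. The 5 intramuscular libraries lay entirely above the 5 subcutaneous ones for 23 channel genes and entirely below for 5, beside 7.85% and 5.04% of all genes tested. Each of the 28 called genes differed in the same direction in all 5 animals. The authors' deposited table, from DESeq2, lists 28 channel genes higher and 9 lower at the same threshold, and these include each of the 28 from edgeR, with no change of direction. DESeq2 run on the counts also gave 28 higher and 9 lower, beside 10.8% and 9.24% of all genes tested, and limma voom gave 23 and 5, beside 7.37% and 4.74%. Without intramuscular replicates 1 and 3, the libraries with most striated muscle transcripts, edgeR called 15 higher and 0 lower (26 and 9 at an unadjusted p under 0.05), beside 2.43% and 0.531% of all genes tested.

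By ion, the calls were counted in each class, beside 6.75% higher and 5.49% lower of all genes tested. Potassium genes had 9 higher and 1 lower of 44 tested, and voltage-gated calcium genes had 7 higher of 14. Sodium genes had 2 higher of 5, TRP genes 3 higher and 1 lower of 15, and release channels 1 higher of 4. Anion genes had 1 higher and 3 lower of 16, so 3 of the 5 falls were anion genes. The median log2 fold change was 1.30 for voltage-gated calcium genes, 0.28 for potassium genes, -0.33 for TRP genes and -0.23 for anion genes. Whether the classes differ from each other was not tested. By role, 15 pore-forming genes were higher and 5 lower of 75 tested, and 8 accessory genes were higher of 24.

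**Figure D2:**
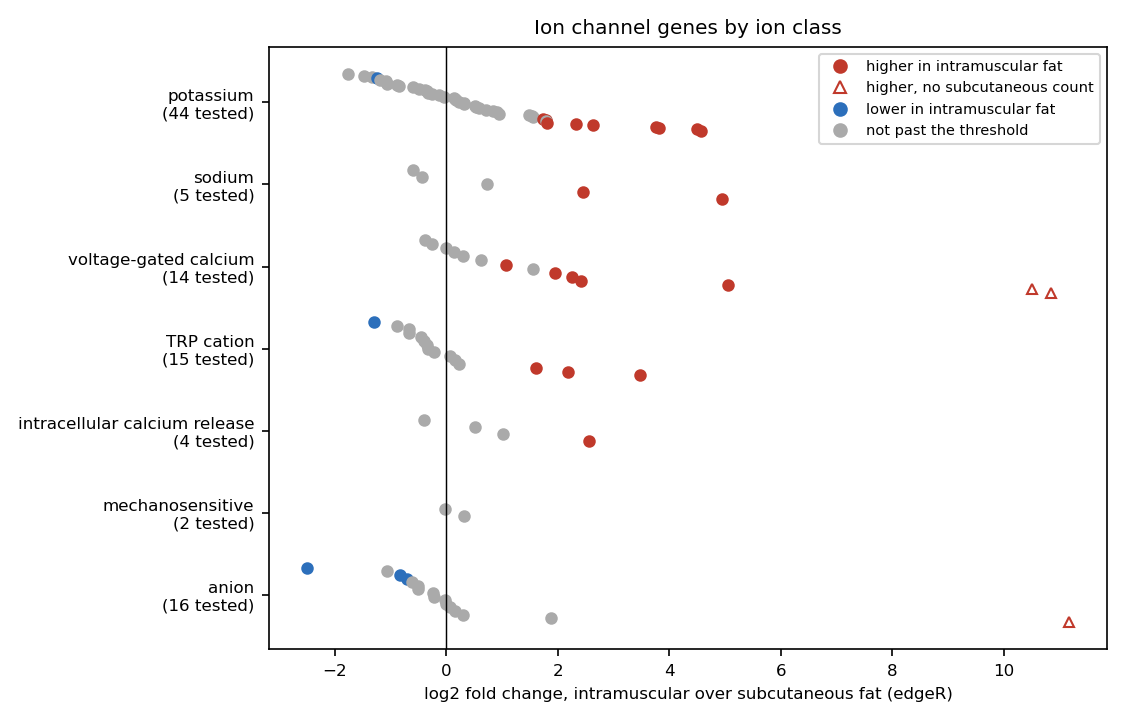
Log2 fold change, intramuscular over subcutaneous fat, of the 100 tested channel genes by ion class. Red points passed the threshold as higher, blue points as lower and grey points did not pass; open triangles mark CACNA2D2, CACNG6 and ANO5, which had no subcutaneous count, so that their position is a fitted value and no measured fold.

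Among voltage-gated potassium genes, KCNAB1 had the highest fold change. KCNAB1 (ENSBTAG00000018465, chromosome 1, 111111924 to 111559606 as the deposited table gives it) encodes a cytoplasmic beta subunit that speeds inactivation of KCNA channels. It measured 134.7, 77.8, 91.7, 73.9 and 64.8 CPM in intramuscular replicates 1 to 5, against 6.71, 7.99, 1.80, 1.17 and 1.02 CPM in subcutaneous replicates 1 to 5. The depots did not overlap, and the log2 fold change was 4.57 ± 0.56 (± SE; edgeR adjusted p = 0.000304). KCNA5, a pore that KCNAB1 binds and a known channel of arterial smooth muscle and atrium, measured 42.4, 25.6, 35.2, 28.5 and 26.8 CPM against 8.33, 8.28, 4.84, 7.28 and 2.65 CPM. Its log2 fold change was 2.33 ± 0.30 (edgeR adjusted p = 0.0005). KCNH2, the hERG channel of cardiac repolarisation (ENSBTAG00000004078, chromosome 4, 113526181 to 113561800), measured 90.1, 64.2, 62.6, 45.1 and 31.4 CPM against 2.45, 8.58, 3.91, 4.41 and 2.31 CPM. All intramuscular values of both pores lay above all subcutaneous values, and KCNH2 had a log2 fold change of 3.76 ± 0.39 (edgeR adjusted p = 0.000105). KCNA6 rose by 1.81 ± 0.46 at a low level (5.57 ± 2.2 against 1.59 ± 0.809 CPM), with depots that overlapped and an edgeR adjusted p of 0.0242. That call was lost without intramuscular replicate 2, 3 or 4 or subcutaneous replicate 3 (0.0525 to 0.0632). KCNQ1, a slow repolarising channel of heart and of epithelia, was the potassium gene that fell, at 4.31, 4.40, 2.48, 5.35 and 4.53 CPM against 15.9, 10.6, 5.40, 6.81 and 11.6 CPM (log2 fold change -1.25 ± 0.33, edgeR adjusted p = 0.0296). Its highest intramuscular value lay just under its lowest subcutaneous one, and 7 of 10 fits that left out 1 library lost the call (0.0522 to 0.0728).

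The large-conductance calcium-activated (BK) potassium channel was higher in both its pore and its smooth muscle subunit. KCNMA1, the pore, measured 11.1, 8.66, 14.3, 8.81 and 11.4 CPM in intramuscular fat against 0.904, 4.25, 1.30, 0.705 and 1.63 CPM in subcutaneous fat. KCNMB1, the beta subunit that raises the calcium sensitivity of the channel in smooth muscle, measured 128.9, 90.4, 84.8, 79.2 and 72.6 CPM against 29.3, 27.3, 39.4, 14.3 and 22.3 CPM. The log2 fold changes were 2.63 ± 0.45 and 1.78 ± 0.25, with edgeR adjusted p of 0.00325 and 0.000968. Subcutaneous replicate 2 stood apart for KCNMA1, and without it the log2 fold change was 3.25. KCNMB4, the subunit best known from neurons, had a log2 fold change of 0.52 (edgeR adjusted p = 0.0892). KCNT1, a sodium-activated channel, rose by 1.73 ± 0.42 (12.6 ± 9.65 against 3.79 ± 0.965 CPM, edgeR adjusted p = 0.0211). Leaving out intramuscular replicate 1 lowered that depot's KCNT1 mean to 8.38 CPM, and the call was lost without subcutaneous replicate 3 (0.0521).

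Of the 4 inward rectifiers, 2 rose. KCNJ11, the pore of the ATP-sensitive channel of beta cells and of skeletal and cardiac muscle, measured 96, 30, 38.9, 15 and 18.1 CPM in intramuscular fat against 0.839, 2.27, 4.22, 3.70 and 2.86 CPM in subcutaneous fat. KCNJ12, a strong inward rectifier of muscle and heart (ENSBTAG00000020061, chromosome 19, 35328653 to 35363115), measured 84.1, 21.2, 23.2, 12.7 and 13 CPM against 1.81, 1.54, 1.55, 1.06 and 0.817 CPM. Intramuscular replicate 1 was far above the other intramuscular libraries for both, yet each of the other libraries also lay above every subcutaneous one. The log2 fold changes were 3.82 ± 0.55 and 4.50 ± 0.56 (edgeR adjusted p of 0.00111 and 0.000387), or 3.19 and 3.69 without intramuscular replicate 1. KCNJ8, the ATP-sensitive pore of pericytes and vascular smooth muscle, measured 27.5 ± 3.2 against 30.2 ± 10.4 CPM and did not pass (-0.14 ± 0.25, edgeR adjusted p = 0.743). ABCC8 and ABCC9, the sulfonylurea receptors that pair with the ATP-sensitive pores KCNJ11 and KCNJ8, rose by 3.98 ± 0.54 and 1.45 ± 0.41 (edgeR adjusted p of 0.00073 and 0.0368). ABCC8 measured 6.28 ± 4.12 against 0.389 ± 0.175 CPM and ABCC9 15.5 ± 4.06 against 5.67 ± 2.73 CPM. ABCC8 passed the filter through intramuscular fat only, and ABCC9 lost its call in 5 of the 10 fits without 1 library.

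The 9 two-pore (KCNK) genes, which carry the background potassium leak, gave no call by edgeR, with 1 positive and 2 negative at an unadjusted p under 0.05. DESeq2 and limma voom each called KCNK4 lower, and edgeR with the animal as a block called KCNK5 lower. KCNK3, the acid-sensitive TASK-1 channel that is active in brown fat of mice, measured 47.4 ± 15.7 against 60.3 ± 24.1 CPM (-0.35 ± 0.27, edgeR adjusted p = 0.415). KCNK4 lay lower in every intramuscular library than in any subcutaneous one (0.811 to 2.94 against 3.36 to 5.96 CPM) with an edgeR adjusted p of 0.0595.

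Of the 5 sodium channel genes tested 2 rose, neither of them a classical voltage-gated pore. SCN4B encodes an auxiliary beta subunit of nerve and muscle sodium channels (ENSBTAG00000039340, chromosome 15, 28825538 to 28845680). It measured 141.0, 47.6, 116.5, 23.7 and 62.3 CPM in intramuscular fat against 4.58, 3.37, 3.17, 1.41 and 0.204 CPM in subcutaneous fat (log2 fold change 4.94 ± 0.65, edgeR adjusted p = 0.000544). SCN7A, a sodium-sensing relative of the voltage-gated pores known from glia, including Schwann cells, measured 4.68, 2.28, 1.75, 4.74 and 4.05 CPM against 0.258, 0.513, 0.435, 0.411 and 1.57 CPM. The depots did not overlap for either gene, and SCN7A had a log2 fold change of 2.45 ± 0.56 (edgeR adjusted p = 0.0158), or 3.09 without subcutaneous replicate 5. The lowest SCN7A values in intramuscular fat were those of replicates 2 and 3. Of the 12 Schwann cell and nerve markers with values 7 were higher and 2 lower, beside 6.75% and 5.49% of all genes tested. Their sum was 554.3 to 930.5 CPM in intramuscular and 700.5 to 1514.0 CPM in subcutaneous fat. S100B, which adipocytes of rodents also make, fell and gave 329.3 ± 117.0 of it in intramuscular and 908.5 ± 401.0 CPM in subcutaneous fat. The neurofilament genes went both ways: NEFM had no subcutaneous count, while NEFH fell (1.09 ± 0.218 against 4.14 ± 3.47 CPM). NEFH had a log2 fold change of -1.91 (edgeR adjusted p = 0.0486), a call kept in 2 of 10 fits without 1 library. The part of nerve in the sodium channel results was not tested. SCN2B and SCN3B, other beta subunits, did not pass (edgeR adjusted p of 0.269 and 0.523), although SCN2B did without subcutaneous replicate 1 (log2 fold change 1.25, edgeR adjusted p = 0.0389), and SCN4A was not analysed here.

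Of the 14 voltage-gated calcium channel genes tested 7 rose, and the rises covered pores and auxiliary subunits. CACNA1C, the L-type pore of smooth and cardiac muscle (ENSBTAG00000010660, chromosome 5, 108446722 to 108792612), measured 83.8, 51.7, 45.2, 42.9 and 41.2 CPM in intramuscular fat against 16.1, 10, 5.71, 9.87 and 7.76 CPM in subcutaneous fat. CACNA1H, a low-threshold T-type pore, measured 260.4, 180.7, 150.9, 152.0 and 140.6 CPM against 113.5, 97.1, 61.9, 71.8 and 79.3 CPM. Neither gene's depots overlapped. The log2 fold changes were 2.42 ± 0.29 and 1.06 ± 0.22 (edgeR adjusted p of 0.000294 and 0.00845). CACNA2D1, the alpha-2-delta subunit that carries L-type pores to the surface in muscle, rose by 2.25 ± 0.34 (130.2 ± 75.1 against 27.3 ± 7.51 CPM, edgeR adjusted p = 0.00138). CACNA1D, another L-type pore, measured 4.02 ± 1.55 against 4.01 ± 1.42 CPM (edgeR adjusted p = 0.996), and the beta subunit CACNB3 39.4 ± 6.06 against 47 ± 11.7 CPM (0.387). CACNA1S, CACNB1 and CACNG1, the skeletal muscle subunits, were not analysed here.

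A further 4 auxiliary genes rose, 2 of them with no count in subcutaneous fat. CACNA2D2 measured 34.1, 11.6, 10.1, 2.85 and 4.26 CPM in intramuscular replicates 1 to 5 and had no count in any subcutaneous library. CACNG6, a gamma subunit of skeletal muscle, measured 43.7, 14.1, 13.4, 3.73 and 5.34 CPM and also had no subcutaneous count. A floor of 3 counts over the 5 subcutaneous libraries was set (0.039 CPM, counting error only). Against it the intramuscular mean of CACNA2D2 was 322.5-fold and that of CACNG6 412-fold higher, or 185-fold and 234-fold without intramuscular replicate 1. The spread of the intramuscular libraries does not enter these values. Both genes passed the filter through intramuscular fat only (edgeR adjusted p of 0.00142 and 0.00124). CACNG4 had 14 counts over the subcutaneous libraries (0.175 ± 0.132 CPM) against 18.3, 2.79, 4.60, 1.42 and 4.26 CPM in intramuscular fat. Its log2 fold change was 5.06 ± 0.85 (edgeR adjusted p = 0.0027), or 4.13 without intramuscular replicate 1. CACNG4 also passed the filter through intramuscular fat only. CACNG7, which belongs to the gamma subunits that bind glutamate receptors in brain, rose by 1.94 ± 0.57 (5.20 ± 4.44 against 1.34 ± 0.651 CPM, edgeR adjusted p = 0.0433). That call was the least stable of the rises. It was lost in 8 of 10 fits without 1 library, at 0.13 and a log2 fold change of 1.27 without intramuscular replicate 1, and with the animal as a block (0.0638).

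**Figure D3:**
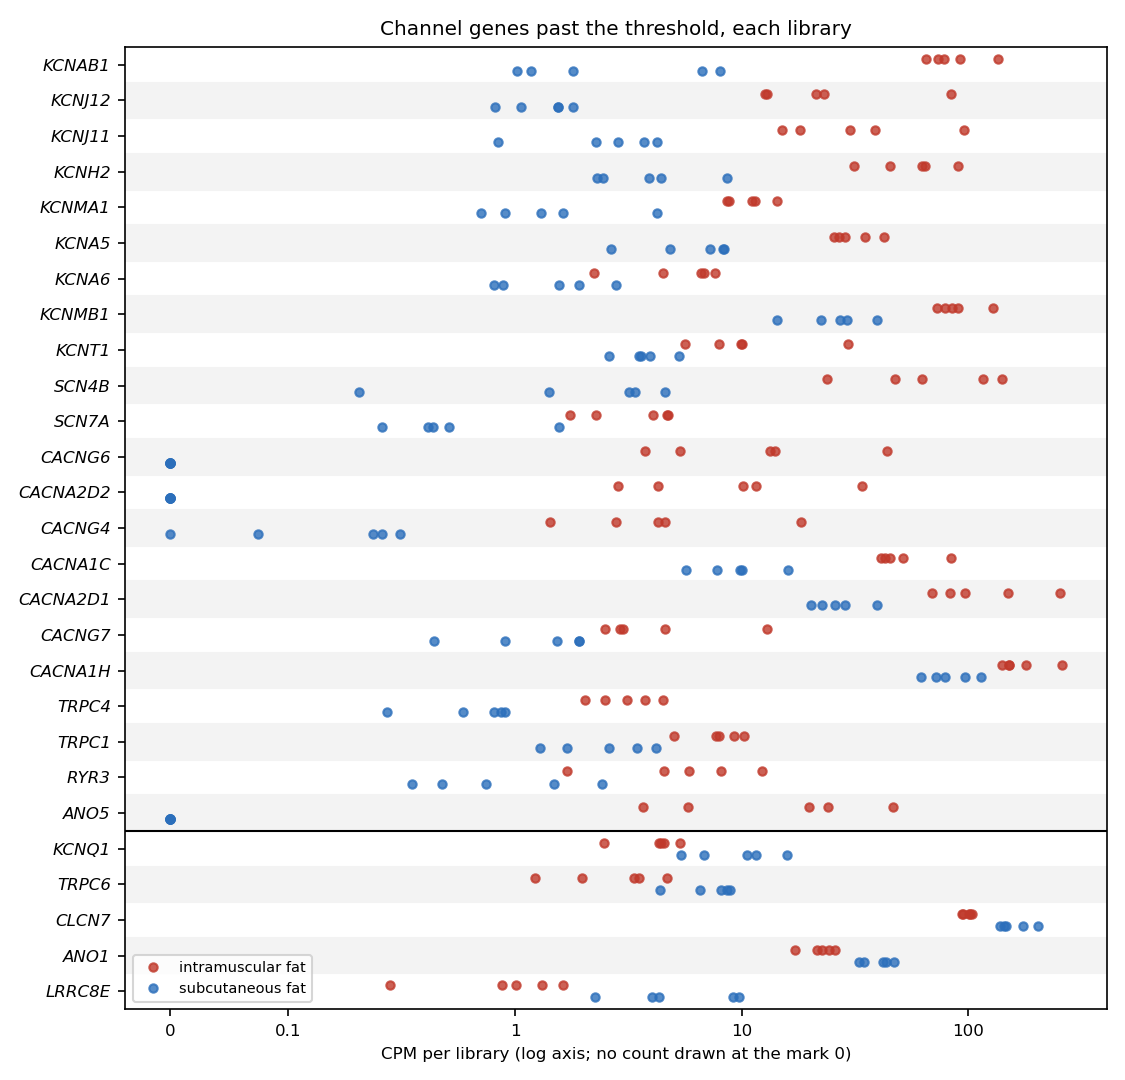
CPM in each library (log axis, no count drawn at the mark 0) of 27 of the channel genes past the threshold, intramuscular libraries in red above subcutaneous libraries in blue. Above the line are 22 genes higher in intramuscular fat, of which KCNA6 and RYR3 overlap between depots; below it are the 5 lower genes, of which TRPC6 overlaps.

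Among release channels, RYR3, the ryanodine receptor form of smooth muscle, brain and developing muscle, measured 12.3, 4.55, 8.11, 5.83 and 1.69 CPM in intramuscular fat against 1.48, 2.42, 0.745, 0.352 and 0.476 CPM in subcutaneous fat. The depots overlapped through intramuscular replicate 5. The log2 fold change was 2.56 ± 0.62 (edgeR adjusted p = 0.0194), and the call was lost without intramuscular replicate 1 (0.0513) or 3 (0.0509). RYR1, the skeletal muscle form, was not analysed here. ITPR1, the inositol trisphosphate receptor of smooth muscle and neurons, measured 52.9, 60.1, 63.4, 53.3 and 47.6 CPM against 37.6, 39.3, 28.6, 25 and 7.62 CPM. Its depots did not overlap, yet it missed the threshold (1.01 ± 0.33, edgeR adjusted p = 0.0599). It passed with the animal as a block (0.0286), by DESeq2 (0.0177), by limma voom (0.0412) and without subcutaneous replicate 1 (0.0462) or 5 (0.0195). ITPR2 and ITPR3 measured 37.5 ± 10.1 against 49.6 ± 11.8 CPM and 24.3 ± 1.97 against 17.1 ± 9.65 CPM, with edgeR adjusted p of 0.248 and 0.344.

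In the TRP class the calls were all in TRPC genes, which encode cation channels opened downstream of phospholipase C. TRPC1 measured 9.27, 7.71, 10.2, 5.02 and 7.91 CPM in intramuscular fat against 4.19, 3.45, 2.61, 1.29 and 1.70 CPM in subcutaneous fat. TRPC4 measured 3.17 ± 0.978 against 0.688 ± 0.263 CPM. The depots did not overlap for either of these, and the log2 fold changes were 1.60 ± 0.37 and 2.19 ± 0.46 (edgeR adjusted p of 0.0154 and 0.0103). TRPC6, a diacylglycerol-gated channel known from smooth muscle and kidney, went the other way at 1.22, 1.98, 3.36, 4.68 and 3.51 CPM against 8.13, 8.65, 6.52, 8.93 and 4.35 CPM (-1.30 ± 0.38, edgeR adjusted p = 0.0419). Its depots overlapped, 8 of 10 fits without 1 library lost the call (0.0581 to 0.085), and so did the fit with the animal as a block (0.0554). Per length, TRPC6 stood at 1.06 CPM per kb in intramuscular and 2.62 CPM per kb in subcutaneous fat.

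The 6 TRPM and 3 TRPV genes gave no call in either direction by edgeR, DESeq2 or limma voom. At an unadjusted p under 0.05 edgeR found no TRPM gene and 1 TRPV gene, in the negative direction. TRPM4, a calcium-activated monovalent cation channel, measured 50.4 ± 18 against 48 ± 3.54 CPM, and TRPM7, a channel with a kinase domain that carries magnesium, 25.2 ± 3.18 against 21.7 ± 5.63 CPM (edgeR adjusted p of 0.858 and 0.504). TRPV2, a cation channel of macrophages and of brown adipocytes in mice, measured 17.9 ± 5.97 against 28.5 ± 13.2 CPM (edgeR adjusted p = 0.145). TRPV1 and TRPV4 were at 1.98 ± 2.09 against 2.73 ± 1.38 CPM and 0.673 ± 0.402 against 0.854 ± 0.655 CPM.

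PIEZO1 and PIEZO2, the stretch-activated cation channels, were not called by edgeR, DESeq2 or limma voom, nor at an unadjusted p under 0.05. PIEZO1 measured 211.5, 249.0, 185.5, 206.7 and 381.7 CPM in intramuscular fat against 448.2, 305.5, 144.3, 181.7 and 180.0 CPM in subcutaneous fat (-0.03 ± 0.31, edgeR adjusted p = 0.96). Libraries of either depot ranged widely and overlapped throughout. PIEZO1 overlaps CTU2 on the opposite strand by 876 bases of the gene models, and the strand setting of the counting is not given in the sources used here.

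Anion channel genes held 3 of the 5 falls, and the summed level of the class did not overlap between depots. Over the 16 genes, intramuscular libraries had 500.1 to 573.5 CPM and subcutaneous libraries 667.1 to 770.1 CPM. The sum over all genes of the table did not overlap either. It was 879233.1 to 1002630.7 CPM in intramuscular and 1009769.5 to 1178371.7 CPM in subcutaneous libraries. CLCN7, the lysosomal chloride-proton exchanger (ENSBTAG00000015889, chromosome 25, 1138152 to 1158761), measured 101.1, 94.3, 101.4, 94.8 and 104.3 CPM against 138.6, 147.0, 174.1, 143.6 and 202.4 CPM. ANO1, a calcium-activated chloride channel of smooth muscle and epithelia, measured 22.7, 24.4, 17.2, 21.6 and 25.7 CPM against 47, 41.9, 34.8, 43.2 and 33.1 CPM. Both were lower in every intramuscular library than in any subcutaneous one, with log2 fold changes of -0.70 ± 0.14 and -0.84 ± 0.17 (edgeR adjusted p of 0.00902 and 0.00784). The lysosomal cation channel MCOLN1 fell as well, by 0.57 on the log2 scale (41.9 ± 6.6 against 62.3 ± 6.15 CPM, edgeR adjusted p = 0.028), a call kept in 4 of 10 fits without 1 library. Other marker lists also held falls: macrophage (4 lower of 9, sums of 166.9 to 317.3 against 173.0 to 881.8 CPM), endothelial (4 of 10), fibro-adipogenic progenitor (3 of 10, with 1 higher) and adipocyte (2 of 11, or 5 by DESeq2 and 4 with the animal as a block). Of all genes tested 5.49% were lower, or 9.24% by DESeq2 and 6.96% with the animal as a block. Without intramuscular replicates 1 and 3, edgeR called 0 macrophage (4 at an unadjusted p under 0.05), 1 endothelial, 2 progenitor and 0 adipocyte markers lower (4 unadjusted). In that fit 0.531% of all genes tested were lower. The part of these cell types in the anion results was not tested. ANO10 measured 129.6 ± 30.6 against 197.7 ± 51.2 CPM (-0.61 ± 0.22, edgeR adjusted p = 0.0892, or 0.0449 without subcutaneous replicate 4).

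Of the 5 LRRC8 genes, 1 fell and the other 4 did not pass the threshold. LRRC8E (ENSBTAG00000004300, chromosome 7, 16653091 to 16660988), one of the subunits that joins LRRC8A, measured 0.281, 1.32, 0.877, 1.63 and 1.01 CPM in intramuscular fat against 2.26, 4.32, 4.04, 9.69 and 9.12 CPM in subcutaneous fat. All intramuscular values lay below all subcutaneous ones (-2.50 ± 0.53, edgeR adjusted p = 0.0102). LRRC8A measured 112.6 ± 17.5 against 130.8 ± 27.5 CPM (-0.22 ± 0.18, edgeR adjusted p = 0.434). LRRC8B, LRRC8C and LRRC8D had log2 fold changes of 0.29, 0.07 and -0.03, with edgeR adjusted p of 0.749, 0.911 and 0.964.

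ANO5 and ANO6 had the positive fold changes among anoctamins. ANO5, an anoctamin of muscle in which variants cause limb-girdle muscular dystrophy in humans (ENSBTAG00000019394, chromosome 29, 22553732 to 22641639), measured 46.6, 19.8, 24, 3.66 and 5.81 CPM in intramuscular fat and had no subcutaneous count. Its intramuscular mean was 513-fold above the same floor, or 342-fold without intramuscular replicate 1, and the spread of the libraries does not enter these values. ANO5 passed the filter through intramuscular fat only (edgeR adjusted p = 0.00121). ANO6, a phospholipid scramblase and channel, measured 21.2, 18.2, 24.5, 18.1 and 23.6 CPM against 6.20, 7.62, 6.02, 9.05 and 0 CPM. Every intramuscular library lay above every subcutaneous one, yet with the subcutaneous library at 0 the edgeR adjusted p was 0.0706 (1.87 ± 0.64). Without that library, replicate 5, it was 0.00111 with a log2 fold change of 1.55. CLCN1, the chloride channel of skeletal muscle, was not analysed here.

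The 23 rises fell along a range of spread among the intramuscular libraries. The highest intramuscular library was at most 2 times the lowest for 4 genes (KCNMA1, KCNA5, KCNMB1 and CACNA1H), between 2 and 4 times for 8, and over 4 times for 11. Replicate 1 was the highest library for 18 of the 23 and for 10 of the 11 with the widest spread. ANO5, CACNA2D2, CACNG6 and CACNG4 differed 12.7, 12, 11.7 and 12.9 times between the highest and lowest intramuscular library. Striated muscle markers stood beside this: the 5 of 32 with values, among them NMRK2, LRRC30, SYNPO2L and XIRP1, were all higher, and summed to 1909.9, 555.5, 1065.4, 300.2 and 423.6 CPM in intramuscular replicates 1 to 5 and to 0.248 to 2 CPM in subcutaneous libraries. NMRK2 and LRRC30 had no subcutaneous count. Over all genes tested 6.75% were higher. Of the 23 rises, 4 had the intramuscular libraries in the same order as this sum: ANO5, KCNJ11, KCNJ12 and KCNT1. For KCNT1 the order rests on 10 CPM in replicate 3 against 9.98 CPM in replicate 2. No share over all genes is given here for this order or for the highest library. The part of muscle RNA in the channel results was not tested.

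Markers of mural cells (pericytes and vascular smooth muscle) also moved. Of 10 listed, 6 had values. The contractile smooth muscle markers of the list, ACTA2, MYH11, CNN1 and TAGLN, were not analysed here. Of the 6, 3 were higher, RGS5 (426.2 ± 147.4 against 52.1 ± 14 CPM), CSPG4 (173.5 ± 30.9 against 75.6 ± 18.3 CPM) and the channel partner ABCC9. The share over all genes tested was 6.75% higher. PDGFRB, MCAM and NOTCH3 did not pass, and the sum of the 6 was 2075.3 to 2645.1 CPM in intramuscular and 1663.0 to 2485.0 CPM in subcutaneous fat, with none at 0. The part of mural cells in the results for KCNMB1, KCNA5, CACNA1C and the other smooth muscle channels was not tested. Without intramuscular replicates 1 and 3 the log2 fold changes of KCNAB1, KCNH2, KCNA5, CACNA1C and KCNMB1 were 4.29, 3.44, 2.11, 2.20 and 1.61, all past the threshold by edgeR (adjusted p from 0.00112 to 0.00878). Those of KCNJ12, KCNJ11 and SCN4B were 3.53, 2.91 and 4.13, also past it. All 5 striated muscle markers with values were still called higher in that fit (median log2 fold change 10.13). Leaving out these libraries therefore did not remove muscle transcripts, and the fit cannot separate muscle RNA from other sources. Among the 8 rises that no longer passed in these 8 libraries were CACNG7, KCNA6, KCNT1, RYR3, SCN7A, TRPC1 and TRPC4.

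**Figure D4:**
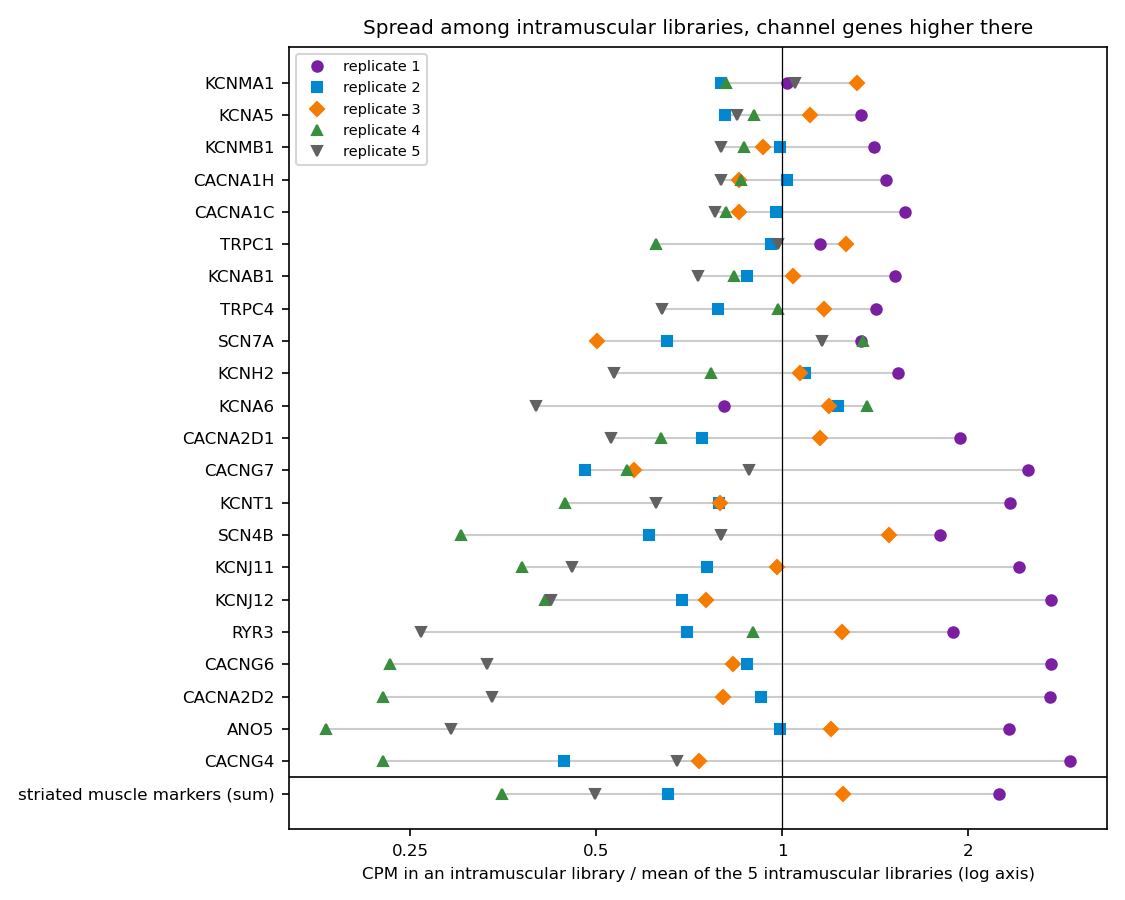
CPM of each intramuscular library divided by the mean of the 5 (log axis), for 22 channel genes higher in intramuscular fat, in the order of their spread, with the sum of 5 striated muscle markers at the bottom. KCNMA1 and KCNA5 differ by 1.65 times between their highest and lowest library, while replicate 1 lies far to the right for CACNG4, CACNA2D2 and CACNG6.

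With the animal as a block 24 channel genes were higher and 6 lower, beside 8.09% and 6.96% of all genes tested. Among the calls the block added were ITPR1 to the rises and KCNK5 and KCNN2 to the falls, and it removed CACNG7 and TRPC6. KCNK5, an acid-sensitive two-pore channel, measured 2.53, 4.11, 3.87, 22.6 and 5.41 CPM against 3.87, 5.57, 5.15, 85.5 and 31.4 CPM. Animal 4 had the highest value in both depots, and the intramuscular value was the lower one in each pair (0.0473 with the block, 0.188 without). KCNN2, a small-conductance calcium-activated channel, was lower in all 5 pairs (6.88 ± 2.52 against 14.7 ± 8.39 CPM, edgeR adjusted p = 0.039 with the block, 0.0947 without).

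**Figure D5:**
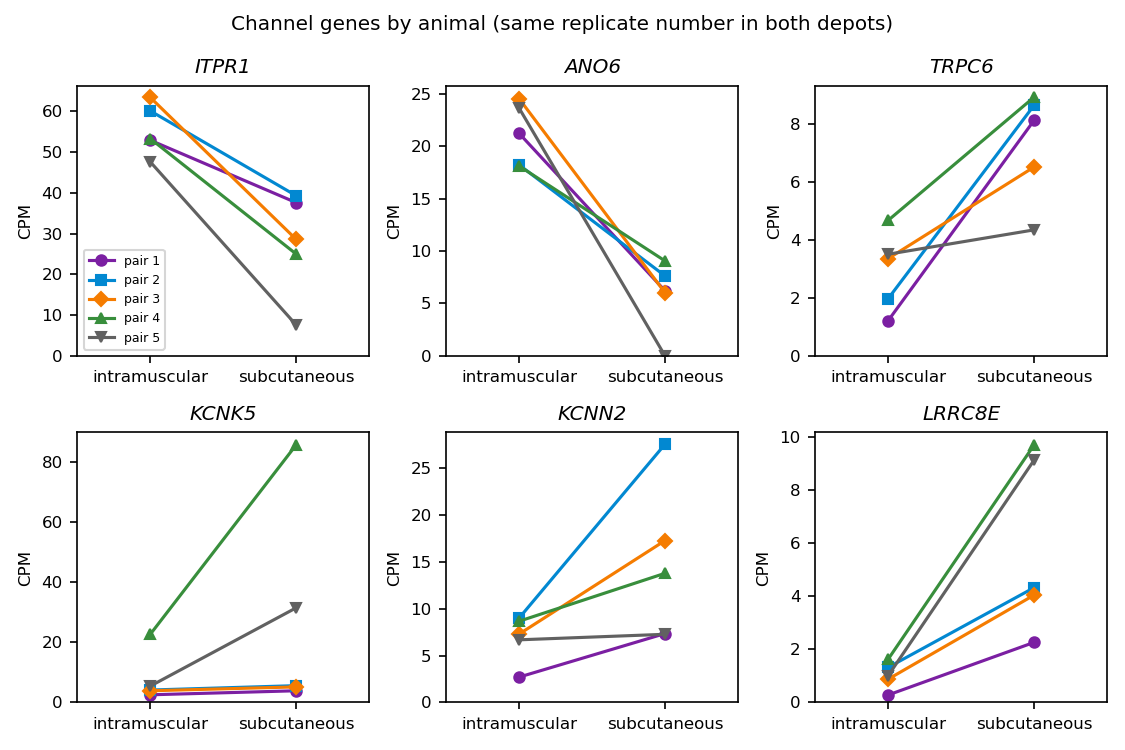
CPM in both depots of each animal (same replicate number, one line per animal, linear axes from 0) for ITPR1, ANO6, TRPC6, KCNK5, KCNN2 and LRRC8E. Every line runs in the same direction within a gene, and for KCNK5 animal 4 is highest in both depots at 22.6 and 85.5 CPM.

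The 3 members that the filter removed were at low counts. KCNQ5, a voltage-gated potassium channel, measured 4.49, 2.06, 1.61, 0.610 and 1.15 CPM in intramuscular fat and was counted in 1 subcutaneous library, replicate 4, at 0.646 CPM. With no filter it had an edgeR adjusted p of 0.0438. CACNA2D4 and SCN11A had one of 0.297 and 0.771.

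Pumps, exchangers and partners of the channels were read from a separate list of 86 genes, 60 of them with values. Of the 59 tested, 13 were higher and 2 lower (22% and 3.39%, beside 6.75% and 5.49% of all genes tested). PLN, which restrains the calcium pump of cardiac and smooth muscle, rose by 3.16 ± 0.45 (276.7 ± 127.5 against 31 ± 21.3 CPM, edgeR adjusted p = 0.00101). It was past the threshold without intramuscular replicates 1 and 3, at 2.69 on the log2 scale. ATP1B1, ATP2B2, ATP2B4, SLC8A2, HCN4, P2RX5, CASQ2, JPH4, ABCC8, ABCC9 and SLC12A2 were also higher. Of these, HCN4, JPH4 and ABCC8 passed the filter through intramuscular fat only. In the 10 fits without 1 library the call was kept in 2 for HCN4, which was counted in 1 subcutaneous library, in 7 for ATP2B4, in 8 for SLC8A2 and in 9 for SLC12A2. Besides MCOLN1, FXYD6, a partner of the sodium pump, fell (59.8 ± 10.6 against 101.0 ± 13.1 CPM, -0.76 ± 0.16, edgeR adjusted p = 0.0107). The store-operated entry genes STIM1, STIM2, ORAI1, ORAI2 and ORAI3 had log2 fold changes of 0.15, 0.02, 0.55, 0.03 and 0.11, and none passed (edgeR adjusted p of 0.204 to 0.973).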

How the data were processed

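Per the labels' protocols, cDNA came from random hexamer priming with dUTP in the second strand, and reads were paired. Per the submitters' processing notes, DESeq2 1.42.0, featureCounts 2.0.2, STAR 2.7.11a and Trimmomatic 0.39 were used. Neither build nor strand setting is given in the sources used here. The authors deposited raw counts per gene for 10 libraries, gene model lengths (an authors' value in bases, in no expression unit), a base mean (a deposited signal scaled by size factors), and, from the authors' own comparison, a Wald score, a log2 fold change with its SE, and a p-value before and after adjustment. From the counts, CPM used edgeR's TMM-scaled library sizes. Depots were compared by the quasi-likelihood test of edgeR 4.0.16 (R 4.3.3, two-sided, filterByExpr on depot, no block, Benjamini-Hochberg over 12521 genes at 0.05). Alternatives were DESeq2 1.42.0 (Wald test), limma 3.58.1 voom, DESeq2 size factors, no filter, the animal as a block, each library left out, and intramuscular replicates 1 and 3 left out. The SE of an edgeR log2 fold change was derived from the test, as its absolute value over the square root of the F statistic. The fit was tested on simulated counts.

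Replicate numbers were taken as pairs, since the design text says both depots came from the same 5 heifers. Across genes, log2 CPM less the depot mean correlated between libraries 1 to 5 of the same number at 0.102, 0.181, 0.176, 0.161 and 0.237. No 2 libraries of a depot agreed within sampling noise. The named genes are the called members, the 3 of highest level per length in each class, 36 fixed members with values, and members whose call changes with the block; KCNK4, KCNMB4, CACNA2D4, SCN11A, STIM and ORAI genes were chosen after their values were seen. The members and lists were chosen with earlier results of these data known. Some genes of the table are not reported here. A planned promoter motif count was not run.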

Additional observations from a re-analysis of the deposited data

Results flagged for a closer look

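Of 112 sets of 5 libraries (56 named and tested channel genes in each depot), 11 had a highest or lowest library whose gap to its neighbour was over 0.71 of the range on the log2 CPM scale, where chance flags about 1 in 20 sets. The flagged libraries were mainly intramuscular replicate 1 and subcutaneous replicate 5.

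Intramuscular replicate 1 was lowest for ANO10 (78.2 CPM, the others 129.1 to 153.2), KCNN2 (2.71 CPM, the others 6.69 to 9.03) and LRRC8D (7.21 CPM, the others 16.7 to 21.1). It was also the library with the highest sum of striated muscle markers, 1909.9 CPM. Subcutaneous replicate 5 was lowest for ANO6 (0 CPM, the others 6.02 to 9.05) and ITPR1 (7.62 CPM, the others 25 to 39.3), and highest for TRPC4AP (325.7 CPM, the others 207.6 to 234.3) and TRPV2 (51.9 CPM, the others 19.9 to 24.8).

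KCNJ8 was lowest in subcutaneous replicate 4 (13.3 CPM, the others 29.8 to 39.1), KCNQ1 in intramuscular replicate 3 (2.48 CPM, the others 4.31 to 5.35). LRRC8C was highest in subcutaneous replicate 1 (7.68 CPM, the others 4.22 to 4.82), and TRPV1 in intramuscular replicate 2 (5.73 CPM, the others 0.95 to 1.22).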

How the results depend on the processing

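None of the 28 called channel genes reversed its direction under any setting run. With DESeq2 size factors, no filter on low counts or DESeq2, all 28 called genes kept their call, and 26 did by limma voom and with the replicate block. Of the 28, 22 kept the call in all 10 fits without 1 library. By DESeq2 the class counts that moved by over 1.5 times were 9 channel genes lower, 4 potassium genes lower, 2 release channels higher and 6 related transport genes lower. By limma voom 2 release channels were higher. Of all genes tested, DESeq2 called 10.8% higher and 9.24% lower, and limma voom 7.37% and 4.74%. The main fit called 6.75% and 5.49%. With the replicate block 3 potassium genes were lower, 0 TRP genes lower (2 at an unadjusted p under 0.05), 2 release channels higher and 4 related genes lower. The block changed no other class count by over 1.5 times, and with it 8.09% of all genes tested were higher and 6.96% lower. Without intramuscular replicates 1 and 3 edgeR gave 15 channel genes higher and 0 lower (26 and 9 unadjusted), 0 potassium genes lower (3), 1 sodium gene higher, 0 TRP genes higher (3), 0 TRP genes lower (1), 0 release channels higher (2), 0 anion genes lower (5), and 6 related genes higher and 0 lower (15 and 5). This fit has 3 intramuscular libraries, and in it 2.43% of all genes tested were higher and 0.531% lower. The cause of these moves was not tested.

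Without 1 library at a time, 20 to 26 channel genes were higher and 3 to 6 lower. Over all genes tested these fits called 494 to 1008 higher and 263 to 887 lower, against 845 and 688 in the main fit. Potassium genes ranged from 7 to 10 higher and 0 to 1 lower, sodium genes from 2 to 3 higher, voltage-gated calcium genes from 6 to 7 higher, TRP genes at 3 higher and 0 to 1 lower, release channels from 0 to 2 higher, anion genes from 1 to 2 higher and 3 to 5 lower, and related genes from 8 to 15 higher and 1 to 3 lower. The lower calls were 3 without intramuscular replicate 1, 3 or 5 or subcutaneous replicate 1. The related genes higher were 8 without intramuscular replicate 3, the fit of these with the fewest rises over all genes (494). CPM by the total of listed genes moved 1 of 112 depot means by more than 1 SD, that of CLCN7 in intramuscular fat, to 105.4 CPM. Several calls rest on few counts: over the 5 subcutaneous libraries SCN7A had 48 and TRPC4 53.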
